A study of Mus musculus with 2 samples.

Results

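The 32 genes described here encode the proteins that assemble iron-sulfur clusters in mouse cells, together with the CDGSH proteins, which carry such a cluster themselves. They were chosen by name from the 22838 genes of the deposited table, and all 32 names were found. The values come from NIH3T3 cells, an established line of mouse embryonic fibroblasts. One culture was left untreated and the other received ALA at 100 µM over 16 h. In the labels only the abbreviation appears, usual for δ-aminolevulinic acid, from which cells build heme, and they name no genetic change in either culture. Each condition is 1 library of messenger RNA, so differences between them cannot be set against a spread of replicates, and none was tested. The title of the series concerns SRRD, heme synthesis and circadian rhythms.

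Iron-sulfur clusters are small cofactors of iron and sulfide that carry electrons, hold substrates or stabilise folds in enzymes of respiration, metabolism and DNA repair. In mitochondria, sulfur taken from cysteine is joined to iron on a scaffold protein, and the new cluster is passed by chaperones and glutaredoxins to late factors that build larger clusters and insert them into enzymes. A second machinery in the cytosol uses a sulfur compound exported from mitochondria to supply cytosolic and nuclear proteins. The pathway touches heme synthesis directly: ferrochelatase, which inserts iron into protoporphyrin, carries a cluster in mammals, and cytosolic aconitase without its cluster is the iron regulatory protein IRP1.

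Levels are given as FPKM, fragments per kilobase of transcript, scaled to the mapped reads of the library, which allows genes of different length to be compared. Differences are log2((ALA FPKM + 1)/(untreated FPKM + 1)), a scale that understates the ratio of low genes, and a fold given for a single gene is the plain ratio of FPKM. Counts of genes at least 1.5-fold or 2-fold apart use the log2 scale, so that 1.5-fold is a log2 ratio of at least 0.58 in size. A gene is called measured where its mean over both libraries reaches 1 FPKM, which 10929 genes did. An interval in this text is an approximate 95% counting interval of the log2 ratio. It rests on an estimated depth of about 24000000 reads in the untreated and 34200000 in the ALA library, and covers counting error only, not variation between cultures. Both libraries had the profile of fibroblasts: 10 of 11 fibroblast markers were measured, and Lum was listed at 0 in both. Of the 10, 1 was higher and 9 lower with ALA, beside 47.8% of measured genes that were higher. The summed level of these markers was 12938 FPKM untreated and 11294 FPKM with ALA. At least 1.5-fold lower were 3 of the 10 (30%), beside 7.16% of measured genes: Dcn at -0.95, Pdgfra at -0.64 and Thy1 at -0.62. Of 16 markers of other cell types, 5 were measured, the listed ones summed to 34.4 and 22.5 FPKM, and Epcam, Myod1 and Adipoq were among those listed at 0 in both. Of the 5 measured, Tubb3 was higher at 0.45 and 4 were lower, among them Cd14 at -1.31 and Lyz2 at -0.61, both at least 1.5-fold. Cd68 at 0.96, Pecam1 at 0.63 and Ptprc at 0.36 were higher with ALA, with means below 1 FPKM. The part of these markers in the differences below was not tested.

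All 32 assembly genes were measured, 30 of them at a mean of 5 FPKM or more. As a group they did not differ in 1 direction: with ALA 14 had a higher and 18 a lower value, and their median log2 ratio was -0.05. Over all measured genes 47.8% were higher and the median was -0.02. Of the 32 members, 4 (12.5%) were at least 1.5-fold apart, beside 13.1% of all measured genes. The members higher by that much were Isca2 and Lias, beside 5.9% of measured genes, and those lower were Cisd3 and Narfl, beside 7.16%. The count of 4 is near the background and is no result about the pathway. By the plain ratio of FPKM Fdx1 and Ndor1 passed 1.5-fold as well, which made 6 members (18.75%) beside 18.04% of measured genes. Where the mean reached 5 FPKM, 4 of 30 members (13.3%) were at 1.5-fold on the log2 scale, beside a background share of 9.25%. At 2-fold, Cisd3 was the 1 member apart, beside 3.5% of measured genes in either direction and 2.01% that were lower. The median size of the difference without its sign was 0.33 for the members and 0.22 for all measured genes. On the log2 scale the members nearest to 1.5-fold from below were Bola3, Nfs1 and Fdx1, at 0.56, 0.55 and 0.54.

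**Figure D1:**
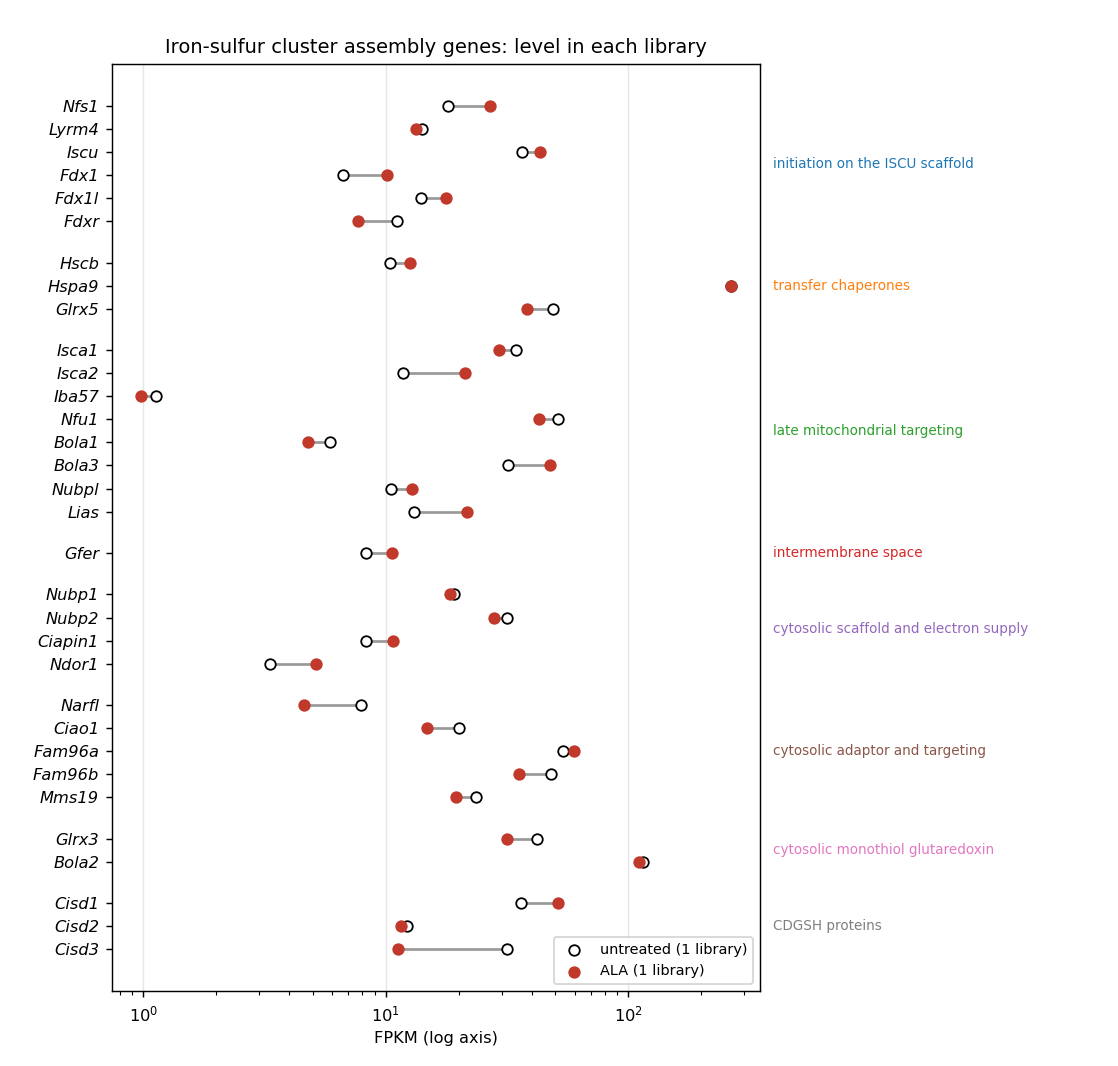
FPKM of each assembly gene in the untreated library (open circles) and the ALA library (filled circles), 1 library each, on a log axis and grouped by step. Hspa9 is the most abundant, with both points together at 264 FPKM, and the widest gap is that of Cisd3.

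Levels within the pathway spanned a wide range. Hspa9 was the most abundant member in both libraries, followed by Bola2 and Fam96a, and Iba57 was the lowest at about 1 FPKM. The median member had 18.5 FPKM untreated and 19.0 FPKM with ALA. The members lie on 15 chromosomes. Counting error alone left 9 of the 32 with an interval that held 0, among them Lyrm4, Cisd2, Nubp1 and Bola2. No share over all measured genes is given beside this count, so it is no result about the pathway.

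The initiating step makes the cluster on the scaffold. Nfs1, the cysteine desulfurase that supplies the sulfur, had 17.99 FPKM in untreated cells and 26.8 FPKM after ALA. Its log2 ratio was 0.55, with an interval of 0.43 to 0.67. Iscu, the scaffold itself, had 36.3 and 43.1 FPKM, a log2 ratio of 0.24 with an interval of 0.12 to 0.36. Lyrm4, which encodes the small protein ISD11 that stabilises the desulfurase, had 14.2 and 13.3 FPKM (log2 ratio -0.09), and its interval of -0.22 to 0.05 held 0. The desulfurase and scaffold were thus higher in the ALA library, while the interval of their stabilising partner held 0.

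Electrons for this step pass from NADPH through ferredoxin reductase to a ferredoxin. Fdx1l, which encodes FDX2, the ferredoxin of cluster synthesis, had 13.9 and 17.7 FPKM, a log2 ratio of 0.33, although 72.7% of its exon bases lie in a readthrough gene and its difference is uncertain. Fdx1 encodes adrenodoxin, the ferredoxin known for steroid synthesis and protein lipoylation, and had 6.63 and 10.1 FPKM, a log2 ratio of 0.54 with an interval of 0.25 to 0.83. Fdxr, which reduces both, had 11.1 and 7.64 FPKM, a log2 ratio of -0.49 with an interval of -0.66 to -0.32. The value of Fdx1 was therefore higher and that of the reductase lower in the ALA library. Over the 6 initiating genes, 4 were higher and 2 lower, with a median of 0.28.

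The chaperones that move the cluster off the scaffold differed little as a set. Hspa9, which encodes the mitochondrial HSP70 mortalin, had 264.1 and 263.7 FPKM. Its log2 ratio of -0.002 had the narrowest interval of the pathway, -0.03 to 0.03, and its sign turned positive under other scalings of the libraries. Hscb, the co-chaperone that brings the scaffold to mortalin, had 10.4 and 12.6 FPKM (0.26), with an interval of -0.01 to 0.53 that held 0. Glrx5, the glutaredoxin that receives the cluster, was lower, with 49.04 and 38.2 FPKM, a log2 ratio of -0.35 and an interval of -0.50 to -0.21.

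Late mitochondrial factors split evenly, 4 higher and 4 lower, with a median of 0.08. Isca2 and Isca1 encode related proteins that help fuse small clusters into larger ones. Isca2 had 11.8 FPKM untreated and 21.1 FPKM with ALA, 1.80-fold higher, and its log2 ratio of 0.79 (interval 0.57 to 1.02) was the highest of all members. Isca1 had 34.3 and 29.2 FPKM, a log2 ratio of -0.23 with an interval of -0.32 to -0.13. The counting intervals of this pair did not overlap, and the gap between their levels was narrower in the ALA library. Iba57, which works with both, was near 1 FPKM, at 1.13 and 0.98 FPKM (-0.10, interval -0.29 to 0.09).

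Targeting factors showed a similar divergence. Bola3, which acts with NFU1 in delivering clusters to lipoyl synthase and respiratory complexes, had 31.9 and 47.4 FPKM, a log2 ratio of 0.56 with an interval of 0.39 to 0.72. Nfu1 had 51.0 and 42.6 FPKM (-0.25, interval -0.38 to -0.13). Bola1, the related partner of glutaredoxin 5, had 5.87 and 4.77 FPKM (-0.25), with the interval of -0.63 to 0.12 holding 0. Of these 3 genes, Bola3 was the 1 that was higher in the ALA library. Nubpl, the factor for complex I, had 10.5 and 12.8 FPKM (0.27, interval -0.07 to 0.61).

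Lias encodes lipoyl synthase, a mitochondrial enzyme that uses its own clusters to insert sulfur into the lipoyl cofactor. It had 12.99 FPKM in untreated cells and 21.6 FPKM after ALA, 1.66-fold higher, and its log2 ratio was 0.69 with an interval of 0.55 to 0.84. Of all measured genes 95.8% had a lower log2 ratio than Lias, and 97.2% a lower one than Isca2. Gfer, the sulfhydryl oxidase of the intermembrane space, had 8.25 and 10.6 FPKM (0.33, interval 0.15 to 0.51). Of the distinct 41-base stretches in all annotated Gfer transcripts 21.9% recur in those of other genes, mostly in Dst, so its value is uncertain.

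**Figure D2:**
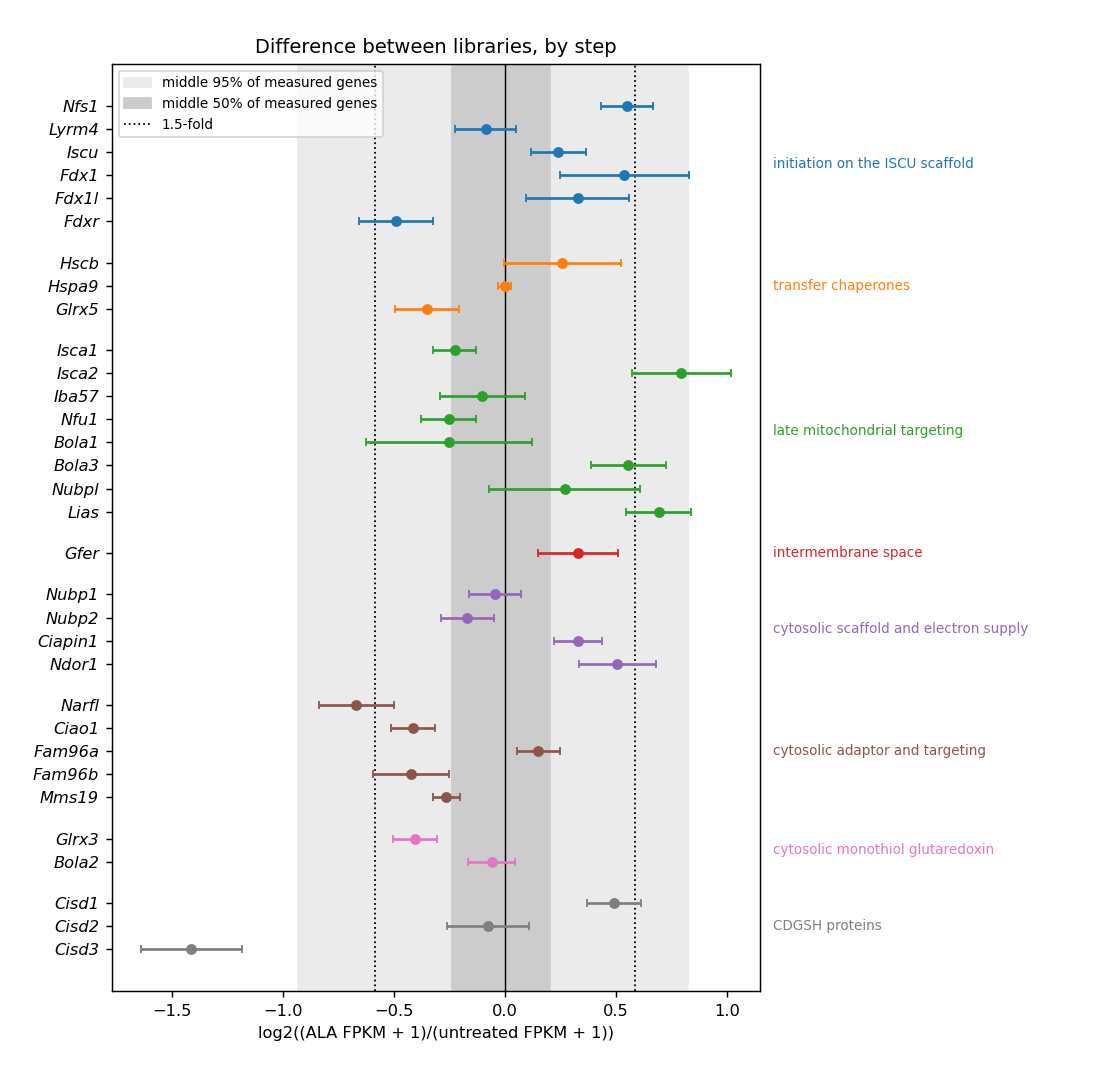
Log2 ratio of ALA to untreated for each assembly gene (points, coloured by step) with its approximate 95% counting interval (bars). Grey bands show the middle 50% and 95% of the 10929 measured genes and dotted lines mark 1.5-fold. Cisd3 at -1.41 lies outside the wider band, and 4 of the 5 cytosolic adaptor and targeting genes lie left of 0.

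The cytosolic machinery begins with a scaffold of the P-loop proteins NUBP1 and NUBP2, fed with electrons by the pair NDOR1 and CIAPIN1. Nubp2 had 31.5 and 27.9 FPKM (-0.17). Nubp1 had 19.1 and 18.4 FPKM (-0.05, positive with equal library totals). Ciapin1 had 8.30 and 10.7 FPKM, a log2 ratio of 0.33 with an interval of 0.22 to 0.44. Ndor1, the flavoprotein that reduces CIAPIN1, had 3.32 and 5.13 FPKM (0.51, interval 0.33 to 0.68). In this step both electron suppliers had higher values in the ALA library and Nubp2 a slightly lower one. The interval of Nubp1, -0.16 to 0.07, held 0. Of the Ndor1 exon bases 48.3% lie in another annotated gene, AL732309.1, and reads there cannot be assigned with certainty.

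From the scaffold, NARFL carries the cluster to a targeting complex of CIAO1, FAM96B and MMS19, which hands it to DNA polymerases, helicases and other clients. Narfl had 7.92 FPKM in untreated cells and 4.61 FPKM after ALA, 1.72-fold lower, with a log2 ratio of -0.67 and an interval of -0.84 to -0.50. Ciao1, the core of the complex, had 20.1 and 14.8 FPKM (-0.41, interval -0.51 to -0.31). Fam96b had 47.7 and 35.4 FPKM (-0.42, interval -0.59 to -0.25). All of these were lower in the ALA library, and so was Mms19, the adaptor for DNA metabolism proteins, with 23.6 and 19.5 FPKM (-0.27, interval -0.33 to -0.20).

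Fam96a encodes the sister of FAM96B, known for serving IRP1 in place of the DNA enzymes. It was the 1 gene of this step with a higher value, 53.9 untreated and 59.9 FPKM with ALA (0.15, interval 0.05 to 0.25). The intervals of Fam96a and Fam96b did not overlap. Over the 5 adaptor and targeting genes the median was -0.41, and 4 of 5 were lower. Over the 11 cytosolic genes 3 were higher and 8 lower (median -0.17). Over the 17 genes of the mitochondrial matrix steps 9 were higher and 8 lower (median 0.24). Of all measured genes 47.8% were higher. Among the lower cytosolic genes, Narfl, Mms19, Glrx3 and Nubp1 had a positive log2 ratio in the sum with another gene of their locus. Such a sum also holds the other gene's own difference and cannot by itself give the member's direction. In other genes lie 9.9% of the Narfl, 9.21% of the Mms19 and 36.9% of the Nubp1 exon bases. For Glrx3, 16.2% of the distinct 41-base stretches recur elsewhere. How such reads were divided is not known, so the direction of these genes is uncertain to that extent. With equal library totals the cytosolic count was 5 higher of 11 and the mitochondrial count 10 higher of 17.

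The genes of the CDGSH proteins spanned the widest range of log2 ratios of any step. Cisd1 encodes mitoNEET of the outer mitochondrial membrane and had 36.2 and 51.3 FPKM, a log2 ratio of 0.49 with an interval of 0.37 to 0.61. Cisd2, whose protein sits in the membrane of the endoplasmic reticulum, had 12.3 and 11.6 FPKM (-0.08, interval -0.26 to 0.11). Cisd3, the family member of the mitochondrial matrix, had 31.5 FPKM untreated and 11.2 FPKM with ALA. Cisd3 was thus 2.81-fold lower, with a log2 ratio of -1.41 and an interval of -1.64 to -1.19, and 0.55% of all measured genes had a lower ratio. The levels of Cisd1 and Cisd3 were close together in untreated cells and wide apart in the ALA library. None of the Cisd3 sequence recurs in another annotated transcript, and none of its exon bases lie in another gene.

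Cisd3 lies on chromosome 11 from 97685826 to 97688621 on the plus strand in the GENCODE M21 annotation of GRCm38, with 3 exons in the transcript used. Its neighbour Pcgf2, a Polycomb gene, ends 201 bases beyond it on the opposite strand and was also lower, with 26.5 FPKM untreated and 15.8 FPKM with ALA (-0.71). Mllt6, which ends 362 bases before it, had 8.58 and 8.87 FPKM (0.04). Isca2, at the other end of the range, lies on chromosome 12 from 84773251 to 84775088 on the plus strand. Stretches upstream of both genes are shown because these members differed most in either direction. Each is the longest run without an annotated exon in the 250 bases before the RefSeq start (GRCm38.p6), ending 107 bases before that start for Cisd3 and 19 for Isca2. They lie on the plus strand at chr11:97685683-97685825 and chr12:84773153-84773250. Capitals mark a CCAAT box.
Cisd3 upstream: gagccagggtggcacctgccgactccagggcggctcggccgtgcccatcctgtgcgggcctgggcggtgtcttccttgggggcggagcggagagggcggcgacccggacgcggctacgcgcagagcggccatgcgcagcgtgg
Isca2 upstream: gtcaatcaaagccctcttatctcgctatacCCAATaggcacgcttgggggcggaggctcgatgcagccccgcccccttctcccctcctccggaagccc

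Short motifs upstream of the members were counted beside those of other genes. Of the members 29 had a RefSeq promoter entry, and the 250 bases before the start were searched on both strands for 4 motifs, in the members and in 8741 measured genes. The core of the antioxidant response element, TGACNNNGC, to which NRF2 and the heme-sensing repressor BACH1 bind, was found in 5 members (17.2%) and in 12.2% of measured genes. Those members were Nfs1, Isca1, Bola1, Ciao1 and Ciapin1, of which 2 had a higher and 3 a lower value with ALA. The hypoxia response core ACGTG was found in 4 members (13.8%) and 22.7% of measured genes, and CCAAT in 13 members (44.8%) and 37.5%. The palindromic NRF1 motif was found upstream of Cisd1 (3.4% of members) and in 1.76% of measured genes. A match is a description of letters and no sign of binding.

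**Figure D3:**
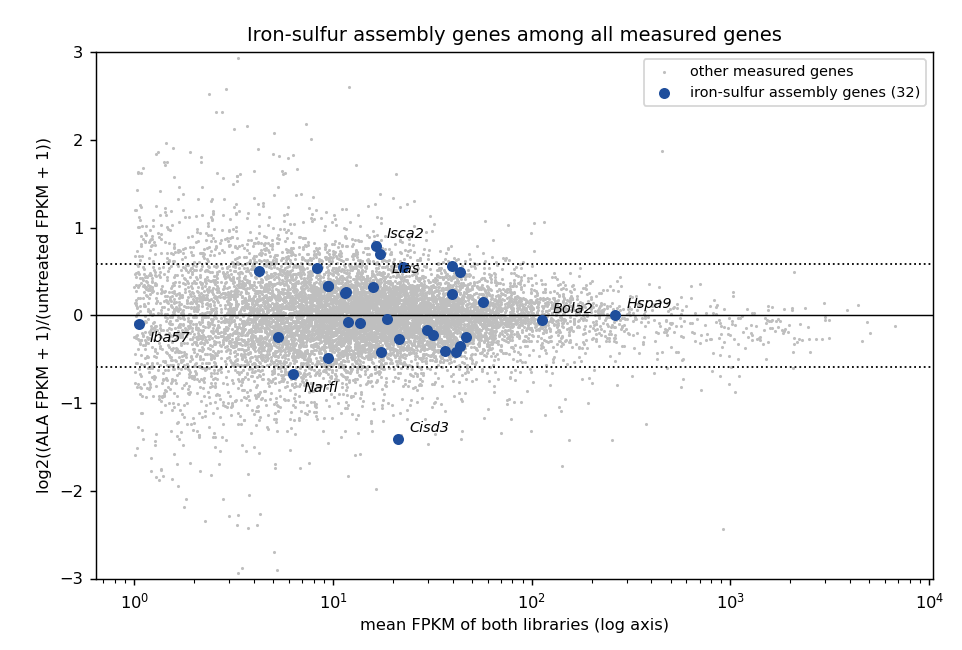
Log2 ratio of ALA to untreated against the mean FPKM of both libraries (log axis), with the 32 assembly genes in blue and other measured genes in grey. Dotted lines mark 1.5-fold, and 9 genes lie beyond the axis. The assembly genes spread through the cloud with 4 of 32 beyond the dotted lines.

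Glrx3 encodes a cytosolic glutaredoxin that works as a complex with BOLA2 in delivering clusters and iron. Bola2 had 115 and 110 FPKM (-0.06, positive with equal library totals). Glrx3 had 42.1 FPKM in untreated cells and 31.5 FPKM after ALA (-0.41), with an interval of -0.51 to -0.31. The deposited table also lists Gm12669, a Glrx3 pseudogene, in the same locus, with 68.02 FPKM untreated and 131 FPKM with ALA (0.94). The pseudogene thus held 61.8% of the pair's FPKM untreated and 80.6% with ALA. Together they had 110.1 and 162.7 FPKM, a log2 ratio of 0.56, so the sum was higher where Glrx3 alone was lower. Weighted by the GENCODE transcript lengths the log2 ratio of the sum was 0.37.

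Within the Glrx3 coding sequence, reads of 41 bases can hardly separate this pair. That sequence has 1014 bases and the transcript used 1685. Over all annotated Glrx3 transcripts 15.6% of the distinct 41-base stretches recur in Gm12669, so reads from other stretches of Glrx3 can be told from it. In GENCODE, Gm12669 spans 91805547 to 91806555 of chromosome 4 (minus strand). Glrx3 lies on the plus strand of chromosome 7 from 137437614 to 137468594. This placement differs from the deposited one, which lists both in 1 locus. Which sequence the deposited Gm12669 values cover is not known, and the comparison below uses the GENCODE one. Over 1009 aligned bases of the Glrx3 coding sequence the pseudogene differs at 4, an identity of 99.6%, and 787 of the 974 possible 41-base windows of the coding sequence (80.8%) occur unchanged in it. The windows below are shown for that reason, the first from chr7:137459146-137459186 and the second from chr7:137453574-137453614 in GRCm38, plus strand. Capitals mark the base that differs.
Glrx3 identical window: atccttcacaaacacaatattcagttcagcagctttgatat
Gm12669 identical window: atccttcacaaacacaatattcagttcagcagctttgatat
Glrx3 differing window: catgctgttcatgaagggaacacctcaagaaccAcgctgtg
Gm12669 differing window: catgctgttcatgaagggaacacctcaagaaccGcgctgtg
A read equal to the first pair fits both genes, and a read across the second is told apart by 1 base. How the deposited values divided such reads is not known, so the direction of Glrx3 in these libraries is uncertain.

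Other members are also listed in 1 locus with another gene, 6 in all. Narfl shares its locus with Haghl, which had 11.1 and 15.1 FPKM, and the sum of 19.0 and 19.7 FPKM had a log2 ratio of 0.05 where Narfl alone had -0.67. Mms19 shares its locus with Zdhhc16 (18.7 and 25.6 FPKM), and their sum was at 0.09 where Mms19 alone was at -0.27. Of the Narfl exon bases 9.9% and of the Mms19 exon bases 9.21% lie in other genes. For Glrx3, Narfl, Mms19 and Nubp1 the sum had the opposite sign to the member.

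Nfs1 and Fdx1l kept their sign in the sum. Nfs1 with Romo1, which had 102.2 and 109.5 FPKM, was at 0.18 where Nfs1 alone was at 0.55. Fdx1l with Raver1 of the same locus, at 22.7 and 28.7 FPKM, was at 0.33, as was Fdx1l alone. Summed with the readthrough gene Raver1-fdx1l, at 6.08 and 3.29 FPKM, Fdx1l was at 0.07. That readthrough gene, named Gm38431 in GENCODE, is the one that covers most of the Fdx1l exon bases. Which gene the reads of these loci belong to was not tested.

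**Figure D4:**
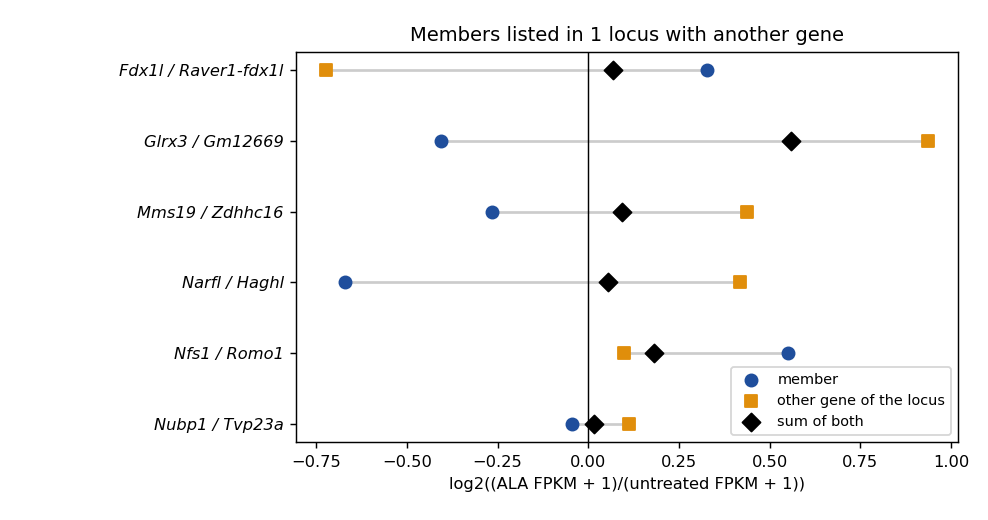
Log2 ratio of ALA to untreated for the 6 assembly genes listed in 1 locus with another gene (circles), for that gene (squares) and for the sum of both FPKM values (diamonds); for Fdx1l, Raver1 of the same locus is left out. The diamond lies on the other side of 0 from the circle for Glrx3, Mms19, Narfl and Nubp1.

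Isca2, Lias and Cisd3, 3 of the 4 members apart by 1.5-fold, share no locus with another gene, and all 4 have under 10% of their sequence shared or overlapping, counted as distinct 41-base stretches over all annotated transcripts of the gene or as exon bases. Of the 32 members 23 meet that limit, and of these 8 were higher and 15 lower, with a median of -0.09. The 9 above it are Gfer, Ndor1 and Fdx1l, whose shares are given above, Nubp1 at 36.9% (mostly with Tvp23a), Glrx3 at 16.2% (mostly with Gm12669), Isca1 at 15.4%, Iscu at 15.1%, Nfs1 at 11.2% and Ciapin1 at 10.03%. For Glrx3 this share is low beside that of its coding sequence because it counts every annotated transcript, longer ones included.

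Further genes of the pathway came from a list of 9, which includes frataxin and mitochondrial iron importers. All 9 were measured, and 3 were higher and 6 lower. None reached 1.5-fold on the log2 scale (3 did by the plain ratio, beside 18.04% of measured genes). The median of the 9 was -0.02 (positive with equal library totals). Lyrm7, which delivers a cluster to the Rieske protein, had 0.81 and 1.39 FPKM (0.40). The iron importer Slc25a37 was at -0.56, and Grpel2, a nucleotide exchange factor of mortalin, had 3.98 and 2.49 FPKM (-0.51).

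Proteins that receive the clusters were read from separate lists. Of 12 mitochondrial clients, 7 were higher and 5 lower with a median of 0.09. None reached 1.5-fold on the log2 scale (1 did by the plain ratio, beside 18.04% of measured genes). Etfdh, the ubiquinone oxidoreductase of fatty acid oxidation, had 18.3 and 25.1 FPKM (0.43), and Ndufs7 of complex I was at 0.26. Cdk5rap1, a tRNA-modifying enzyme, had 9.99 and 6.50 FPKM (-0.55), and Mocs1, which starts molybdenum cofactor synthesis, had 20.8 and 14.0 FPKM (-0.54).

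Of 22 listed cytosolic and nuclear clients 20 were measured, and of these 13 were higher and 7 lower with a median of 0.24. Dpyd and Rsad2 had means below 1 FPKM and are left out of the counts. Dpyd was lower, with 1.34 and 0.10 FPKM (-1.09), and Rsad2 had 0 and 0.03 FPKM. Dna2, a nuclease and helicase of replication, had 1.03 and 2.12 FPKM (0.62), and Tyw1, a tRNA-modifying enzyme, had 6.75 and 10.5 FPKM (0.56). Mutyh, a DNA glycosylase, had 3.46 and 1.61 FPKM (-0.77), and Dph1 of diphthamide synthesis was at -0.57 with 36.02% of its exon bases in other genes. On the log2 scale Dna2 and Mutyh were the 2 measured clients at 1.5-fold, a count of 2 of 20 beside the 13.1% of all measured genes. By the plain ratio 5 of the 20 were, beside 18.04% of measured genes.

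The lipoyl cofactor made by lipoyl synthase is attached to subunits of pyruvate dehydrogenase and related complexes. Of 7 measured genes of attachment and lipoylated complexes, 6 were higher and 1 lower, with a median of 0.32, beside 47.8% of measured genes that were higher. The attachment enzymes Lipt1, with 1.79 and 3.57 FPKM (0.71), and Lipt2, with 1.20 and 2.64 FPKM (0.72, interval 0.18 to 1.27), were at least 1.5-fold higher on the log2 scale, as was Lias. Lipt1 and Lipt2 are 2 of the 7 (28.6%), beside 5.9% of measured genes that were higher by that much. By the plain ratio 3 of the 7 were 1.5-fold apart, beside 18.04% of measured genes. Dbt of the same list was lower, at 0.51 and 0.16 FPKM (-0.38), with a mean below 1 FPKM. Of the Lipt1 exon bases 12.8% lie in other genes. Pdhx, which anchors a subunit of pyruvate dehydrogenase, was the lower gene, with 15.4 and 9.98 FPKM (-0.58), and Gcsh, the lipoylated protein of glycine cleavage, was at 0.14. The list is small, and nothing particular to it can be read from 1 library a group.

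**Figure D5:**
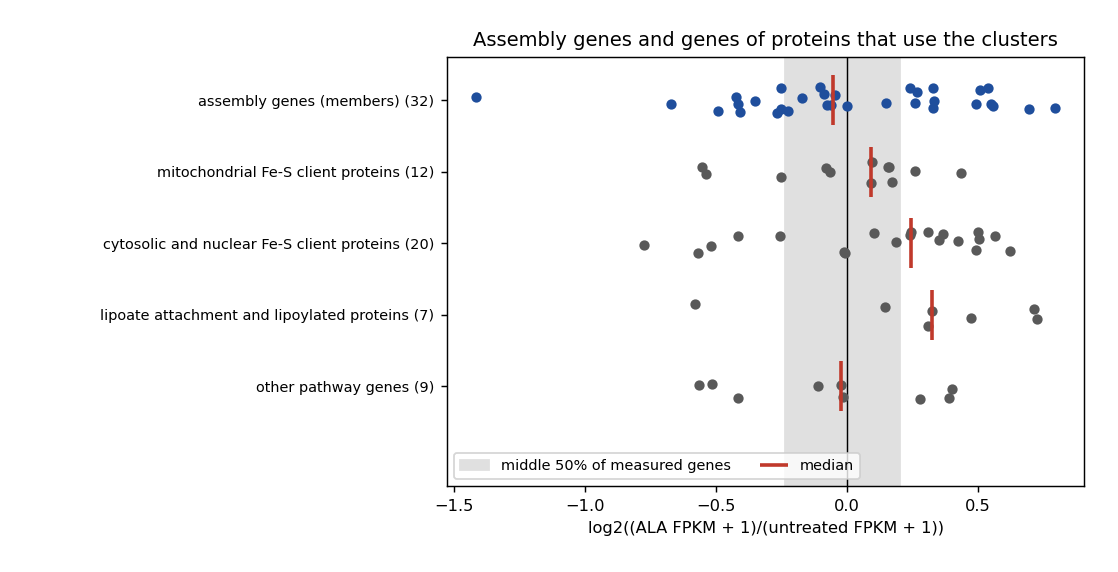
Log2 ratio of ALA to untreated for measured genes of each list (points, spread vertically for legibility), with the number of genes in brackets, the list median in red and the middle 50% of all measured genes in grey. The assembly genes have a median of -0.05 and the lipoate list one of 0.32.

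For size, Hmox1, the heme oxygenase gene, was at 1.05 and Alas1, the first enzyme of heme synthesis, at -1.02 in the same libraries. Cisd3 was the 1 assembly gene with a difference of that size.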

How the data were processed

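Per the labels' protocols, messenger RNA libraries of NIH3T3 cells, 1 untreated and 1 with ALA, were read as single-end reads of 41 bases. The deposited values are FPKM per gene, made by the authors and laid out as Cufflinks does, per the file headers. FastQC 0.11.5, TopHat2 2.1.1, Cufflinks 2.2.1 and build mm10 are named in the submitters' processing notes. The annotation, the options and any strand setting were not given in the sources used here, so overlapping genes were treated as not separable. The deposited FPKM bounds were equal in 100% of genes and carry no error.

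From these values log2 ratios were computed with a pseudocount of 1 FPKM (Python 3.11.15, numpy 2.4.6, pandas 2.3.3). Depth was inferred from the spacing of low FPKM values in genes with 1 transcript of over 1500 bases, less a fragment length of 200. Values of 23300000 to 25800000 reads (untreated) and 29800000 to 36300000 reads (ALA) gave nearly as good a result, and some distant depths scored only slightly lower for the ALA library. Counts simulated at the estimated depths, with counting error alone, served as a check of the code for ratios and intervals. They could not test the depth estimate, which they took as given. Positions, exon overlap and shared 41-base stretches came from GENCODE M21 on GRCm38, where 22334 deposited genes (97.8%) matched by name or synonym and position, Fam96a and Fam96b under newer names.

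The members and lists were chosen with earlier results of these data known. Named were all members and up to 2 highest and 2 lowest measured genes of every other list, with Hmox1, Alas1 and genes that share a member's locus or sequence. Pcgf2, Mllt6, Thy1, Cd68, Pecam1, Ptprc, Dbt, Dpyd, Rsad2 and the markers listed at 0 fell outside this rule. They were chosen after their values were seen. Of the fibroblast markers the highest genes are not named. Alternatives were other pseudocounts, scalings and filters, and leaving out members with shared sequence. Some genes of the lists are counted but not reported here by name.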

Additional observations from a re-analysis of the deposited data

How the results depend on the processing

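No paired analysis was possible because each group had 1 library, and no library could be left out. The median of the members stayed between -0.09 and 0.02 under the alternatives run, turning positive with equal library totals, a scaling that raises log2 ratios by about 0.08. With equal library totals 7 members were at least 1.5-fold apart, Nfs1, Fdx1 and Bola3 joining the 4 (21.9% beside 13.7% of measured genes). A pseudocount of 5 FPKM left 2 members, Isca2 and Cisd3 (6.25% beside 4.51% of measured genes). With a pseudocount of 0.1 FPKM Fdx1 and Ndor1 joined the 4, giving 6 (18.75% beside 17.5% of measured genes). Members with under 10% of their sequence shared counted 8 higher of 23. Over all measured genes, 1427 were at least 1.5-fold apart, against 493 with a pseudocount of 5 and 796 with a mean of at least 5 FPKM. At least 2-fold apart were 383, against 691 with a pseudocount of 0.1, 73 with 5, 171 with a mean of at least 5 FPKM and 731 by the plain FPKM ratio (added after seeing the data). A larger added value shrinks every log2 ratio and a smaller one widens it. The filter of 5 FPKM left 8607 genes, of which 9.25% were at least 1.5-fold apart, beside 13.1% of the 10929. A pseudocount cannot change the sign of a log2 ratio, and the scalings shift ratios by about 0.08 or less. The 4 members at 1.5-fold could therefore not change sign under them, which is no support for their direction. In the sum with Haghl the log2 ratio of Narfl was positive. In alternatives chosen after seeing the data, leaving out the members that share a locus gave a median of -0.03 and 12 higher of 26, and leaving out Cisd3 gave -0.05. Depth limits Bola1, Nubpl, Fdx1, Hscb and Fdx1l most, with the widest counting intervals.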
